A study of Mus musculus with 4 samples.

Results

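The skeletal muscle genes of mouse back skin are described here as a set of 37 named genes, which encode the contractile filaments, the Z disc, the calcium release apparatus and the energy enzymes of striated muscle fibres. A probe set stood for a gene where the array annotation gave it that gene as its only symbol, and the brightest one by the mean of 4 arrays was used. All 37 genes had such a probe set, of 18194 genes with one on the array. The values are log2 expression values, so a difference of 1 is a doubling. Of the 37 genes, 36 passed the filter on dim probe sets, a mean of 6.33, and were tested; Tnnc1 did not and is given by its values only.

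The skin came from 32-day-old male mice of strain C57BL6 X DBA2, either wild type or K5-IKKbeta transgenic. The transgene is IKKbeta (gene symbol Ikbkb), the kinase that activates NF-kB, driven by regulatory sequence of the keratin K5 gene. This sequence is active in basal keratinocytes of epidermis and follicle and not in muscle fibres. Each genotype had 2 arrays, and each array held RNA pooled from 3 mice, so that the spread between arrays is a spread between pools and single mice cannot be seen. Whether the transgenic mice came from 1 founder line is not given in the sources used here. A positive difference means a higher value in K5-IKKbeta skin. Adjusted p-values are those of a limma fit, corrected by the Benjamini-Hochberg method across the 13074 genes tested.

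Rodent skin has a muscle of its own. The panniculus carnosus is a thin sheet of striated muscle below the dermis and its fat, and most of its fibres in the mouse are of fast types. In every fibre, thin filaments of actin with tropomyosin and troponin slide along thick filaments of myosin; the Z disc anchors the thin filaments, and calcium released from the sarcoplasmic reticulum starts contraction. Fast and slow fibres make different isoforms of many of these proteins from separate genes. A piece of back skin can also hold smooth muscle, in the hair-erecting muscles and vessel walls, which uses other genes. Bulk RNA cannot tell more muscle fibres in the sample from more of these RNAs per fibre, nor where under the skin the fibres lay.

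Several checks concern the whole series. The array medians lay between 6.91 and 6.96. For Ikbkb, the largest of the differences among its 5 probe sets was 2.24 (limma adjusted p = 0.000101 over all probe sets), and 3 of the 5 passed, all upwards. Over all tested genes 23.4% were higher and 10.6% lower, with a median log2 fold change of 0.09. Cardiac muscle markers were dim: 4 of 7 (Myh6, Myl7, Nppa and Ryr2) lay on all arrays below the 25th percentile of all probe sets, a floor of 5.27 to 5.38 used here for want of detection calls.

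RefSeq's promoter table (assembly GRCm38.p6, 250 bases before to 50 after a gene's start) held 28 of the 37 genes. These windows were searched on both strands for 3 kinds of sequence element known from muscle genes: the E-box CAGCTG, bound by the MyoD family; the MEF2 site, bound by Mef2 factors; and the CArG box, bound by serum response factor. CAGCTG occurred in 16 of 28 genes (57.1%), against 18.3% of all 27025 genes in the table. The MEF2 site occurred in 5 of 28 (17.9%) against 3.70%, and the CArG box in 3 of 28 (10.7%) against 1.81%. The looser E-box CANNTG, which includes CAGCTG, occurred in 85.7% against 75.0%. A gene with several listed starts counted once if any of its windows held a match, and a match is a string of letters, not a measured binding site.

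The stretches below show these elements in capitals, 5′ to 3′ on the gene's strand, for genes that the results turn on. The first 5 belong to genes of fast or of all fibres that were higher in K5-IKKbeta skin or had both arrays higher. Tnni1 and Casq2 are isoforms of slow fibres: Tnni1 fell, and Casq2 had overlapping groups and did not pass the threshold.
Myh4, chr11:67237622-67237761, plus strand, with a MEF2 site, a CArG box and CAGCTG in that order: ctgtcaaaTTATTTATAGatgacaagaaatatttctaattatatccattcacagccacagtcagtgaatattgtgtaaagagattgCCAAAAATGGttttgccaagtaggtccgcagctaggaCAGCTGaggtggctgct
Myh1, chr11:67199882-67199941, plus strand, with a MEF2 site: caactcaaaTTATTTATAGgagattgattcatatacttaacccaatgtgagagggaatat
Acta1, chr8:123894816-123894875, minus strand, with a CArG box: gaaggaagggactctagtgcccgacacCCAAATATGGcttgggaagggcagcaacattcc
Mylpf, chr7:127211528-127211587, plus strand, with CAGCTG: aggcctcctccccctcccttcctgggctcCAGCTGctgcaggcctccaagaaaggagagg
Atp2a1, chr7:126463094-126463153, minus strand, with CAGCTG: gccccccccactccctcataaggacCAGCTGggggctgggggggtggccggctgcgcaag
Tnni1, chr1:135799321-135799380, plus strand, with CAGCTG: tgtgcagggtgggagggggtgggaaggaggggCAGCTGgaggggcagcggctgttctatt
Casq2, chr3:102086315-102086374, plus strand, with a MEF2 site: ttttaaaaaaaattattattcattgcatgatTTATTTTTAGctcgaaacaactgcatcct
The MEF2 letters of Myh4 and Myh1, neighbours in the cluster of fast myosin genes, are the same. CAGCTG stands both before Mylpf, which rose, and before Tnni1, which fell, as given next.

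Muscle genes were higher in K5-IKKbeta skin across all parts of the fibre. Of 36 tested genes, 31 rose, 1 fell and 4 did not pass the threshold of 0.05, against 23.4% higher and 10.6% lower among all tested genes. The median log2 fold change of the 37 genes was 0.99, a 1.98-fold level, against 0.09 for all tested genes. Both K5-IKKbeta arrays lay above both wild type arrays for 34 of the 37, while 45.2% of all tested genes were separated in this way. The rises ranged from 1.46-fold (Acta1) to 2.94-fold (Tnnt1), and 30 of the 31 had a 95% interval that included a doubling. At least a doubling was fitted for 17 of them, against 5.97% of all tested genes. With each array left out in turn, the median rise of the muscle genes kept its direction. Fewer muscle genes were called without either wild type pool, and so were fewer of all tested genes. A fit without moderation across genes called none of the 36: 24 had an unadjusted p under 0.05 in it, as had 4190 of the 13074 genes tested. Calls of Acta1, Tnnt1, Ryr1, Pygm and Tcap were lost without either wild type pool, that of Cacng1 without pool 1, and those of Atp2a1, Trdn and Tnni1 without pool 2.

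**Figure D1:**
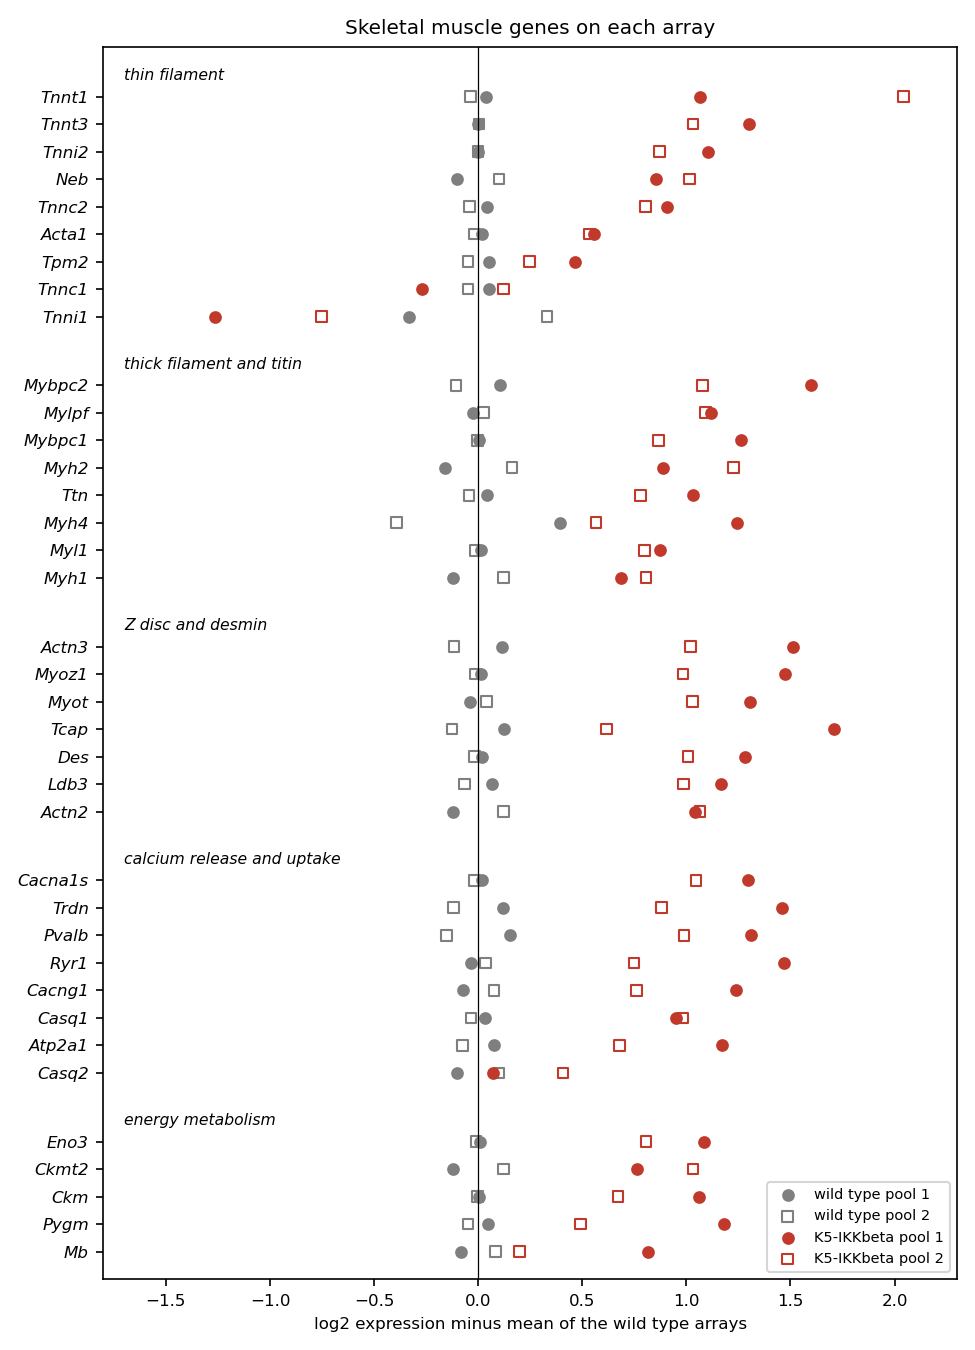
Log2 expression of each of the 37 skeletal muscle genes on each array, as the difference from the mean of the wild type arrays (horizontal axis), grouped by the part of the fibre; grey marks are wild type pools and red marks K5-IKKbeta pools, with circles for pool 1 and open squares for pool 2. For 34 genes both red marks lie to the right of both grey ones; Tnni1 is the gene with both to the left, and Tnnc1 and Casq2 overlap.

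Thin filament genes of fast fibres rose together. Tnnt3, the fast troponin T that ties troponin to tropomyosin, measured 11.66 and 11.66 in the wild type pools and 12.96 and 12.69 in the K5-IKKbeta pools. Tnni2, the fast inhibitory troponin, measured 12.05 and 12.05 in wild type and 13.16 and 12.92 in K5-IKKbeta skin. Tnnc2, the fast calcium-binding troponin, measured 12.79 and 12.71 against 13.65 and 13.55. The groups did not overlap for these 3 genes, and the spread between wild type pools was at most 0.09. The log2 fold changes were 1.17 ± 0.12 (SE; adjusted p = 0.00105) for Tnnt3, 0.99 ± 0.11 (adjusted p = 0.0015) for Tnni2 and 0.85 ± 0.10 (adjusted p = 0.00155) for Tnnc2. Neb, nebulin, the ruler protein along the thin filament, rose 1.91-fold (adjusted p = 0.00216). Acta1, the skeletal alpha-actin whose CArG box is shown above, measured 13.83 and 13.79 against 14.37 and 14.35, a rise of 0.54 ± 0.09 (SE; adjusted p = 0.00639). Its values lie near the top of the table's range, which ends at 14.7. The 3 muscle genes with a wild type mean above 13 had a median difference of 0.75 and the other 34 one of 1.03; the part of array saturation in this was not tested.

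Tpm2, beta-tropomyosin, lay near the threshold and gave different answers with different probe sets. Its brightest measured 12.04 and 11.94 in wild type and 12.45 and 12.24 in K5-IKKbeta skin, a difference of 0.35 that did not pass (adjusted p = 0.0586). The same probe set passed with a filter at the 60th percentile (adjusted p = 0.0476), with a trended and robust variance model (0.0323) and without K5-IKKbeta pool 2 (0.0206). The other 3 probe sets of Tpm2 were all higher, by 0.47 to 1.10 on the log2 scale, when each was tested among all 45101 probe sets (adjusted p = 0.0346 to 0.00341), of which 10.4% were higher and 5.88% lower. Tpm2 is also made by smooth muscle, so this gene is the least tied to striated fibres among the thin filament genes.

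The slow members of the troponin family went 3 ways. Tnnt1, slow troponin T, measured 6.75 and 6.67 in wild type and 7.78 and 8.75 in K5-IKKbeta skin. Its rise of 1.56 ± 0.30 (SE; 2.94-fold, adjusted p = 0.0101) was the largest fitted one among the 37 genes, with a difference of 0.98 between the K5-IKKbeta pools. Tnni1, the slow inhibitory troponin, measured 7.82 and 8.48 in wild type and 6.88 and 7.39 in K5-IKKbeta skin. Tnni1 was the gene that fell, by 1.01 ± 0.26 (SE; adjusted p = 0.0281), and both K5-IKKbeta pools lay below both wild type pools. Without wild type pool 2 the difference was -0.68 and the adjusted p 0.12. Tnnc1, the calcium-binding troponin of slow and cardiac muscle, measured 6.05 and 5.95 against 5.73 and 6.12, with overlapping groups and no test because it was under the filter.

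Thick filament genes were higher in the same range. Mylpf, the fast regulatory light chain, measured 12.52 and 12.57 in wild type and 13.66 and 13.64 in K5-IKKbeta skin, a rise of 1.10 ± 0.09 (SE; 2.15-fold). It had the smallest adjusted p of the 37 genes (0.000506). Myl1, the fast essential light chain, rose from 13.03 and 12.997 to 13.88 and 13.81 (1.78-fold, adjusted p = 0.00138). The pools of each genotype were within 0.07 of each other for both light chains. Ttn, the giant spring protein titin, rose 1.88-fold (adjusted p = 0.00252), and Mybpc2 and Mybpc1, the fast and slow myosin-binding proteins C, rose 2.53-fold and 2.09-fold (adjusted p = 0.00316 and 0.00299).

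Of the fast myosin heavy chains, the motors that set a fibre's speed, Myh2 rose, Myh1 rose by 1 of its 3 probe sets, and Myh4 did not pass. Myh2, of type IIa fibres, measured 9.42 and 9.74 in wild type and 10.47 and 10.81 in K5-IKKbeta skin (1.06 ± 0.16, SE; adjusted p = 0.00465). Myh1, of type IIx fibres, measured 12.96 and 13.20 against 13.76 and 13.89 (0.75 ± 0.12, SE; adjusted p = 0.00545). Myh4, of type IIb fibres, measured 11.94 and 11.15 against 12.79 and 12.11. Its K5-IKKbeta pools lay above its wild type pools, yet the difference of 0.91 ± 0.31 (SE) did not pass (adjusted p = 0.0723). The call of Myh4 was gained without wild type pool 1 (1.30, adjusted p = 0.0411) and without K5-IKKbeta pool 2 (1.25, adjusted p = 0.00781). The fast heavy chain genes are close copies of each other, and the probe set used for Myh1 has an ending that marks shared sequence. The other 2 for Myh1 gave differences of 0.50 and 0.10 (adjusted p = 0.0802 and 0.698 over all probe sets), so the single values of Myh1 are uncertain.

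All 7 genes of the Z disc and its links rose, against 23.4% of all tested genes. Des, desmin, the intermediate filament that ties neighbouring Z discs, measured 9.83 and 9.80 in wild type and 11.10 and 10.82 in K5-IKKbeta skin (1.14 ± 0.12, SE; adjusted p = 0.00114). Myot, myotilin, measured 9.67 and 9.75 against 11.02 and 10.74 (1.17 ± 0.12, SE; adjusted p = 0.00114). Actn3, the alpha-actinin of fast fibres, measured 10.71 and 10.48 against 12.11 and 11.62. The groups stood apart for each of these genes, with differences within a genotype of at most 0.49. Actn3 rose 2.41-fold (adjusted p = 0.00351), Actn2, the alpha-actinin of all fibres, 2.08-fold (adjusted p = 0.00127), and Myoz1 and Ldb3, which bind alpha-actinin, 2.34-fold and 2.11-fold (adjusted p = 0.00294 and 0.00108). Tcap, which caps titin at the Z disc, had the widest spread: 9.91 and 9.66 in wild type and 11.50 and 10.40 in K5-IKKbeta skin (1.16 ± 0.34, SE; adjusted p = 0.0423). The call of Tcap was also lost with another quantile normalization (adjusted p = 0.068).

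Genes of calcium release and uptake rose in 7 of 8 cases, against 23.4% of all tested genes. Cacna1s, the voltage sensor of the transverse tubule, measured 7.67 and 7.64 in wild type and 8.95 and 8.70 in K5-IKKbeta skin (1.17 ± 0.12, SE; adjusted p = 0.00093). Ryr1, the release channel it opens, measured 9.06 and 9.13 against 10.57 and 9.85 (1.11 ± 0.23, SE; adjusted p = 0.0131). Casq1, the calcium-storing protein of fast fibres, measured 10.86 and 10.79 against 11.78 and 11.81 (0.97 ± 0.09, SE; adjusted p = 0.000841). The sensor, the channel and the store were thus about doubled together, with the channel differing most between the K5-IKKbeta pools. Trdn (triadin, which links Casq1 to Ryr1) rose 2.25-fold, Cacng1 (a subunit of the voltage sensor complex) 1.999-fold, Atp2a1 (the fast calcium pump) 1.90-fold, and Pvalb (the calcium buffer of fast fibres) 2.22-fold, with adjusted p of 0.00289 to 0.00965. Casq2, the calsequestrin of slow and cardiac muscle, measured 7.82 and 8.02 against 7.99 and 8.33. Its groups overlapped, and the difference of 0.24 ± 0.14 (SE) did not pass (adjusted p = 0.257).

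Of the 5 energy genes, 4 rose, against 23.4% of all tested genes. Ckm, the cytosolic creatine kinase of muscle, measured 12.31 and 12.31 in wild type and 13.37 and 12.98 in K5-IKKbeta skin (0.87 ± 0.14, SE; adjusted p = 0.00626). Ckmt2, its mitochondrial partner, measured 9.44 and 9.68 against 10.32 and 10.59 (0.90 ± 0.14, SE; adjusted p = 0.00469). Eno3, the enolase of muscle, rose 1.93-fold (adjusted p = 0.00232) and Pygm, which breaks down glycogen, 1.79-fold (adjusted p = 0.0314). The call of Pygm was lost with another quantile normalization (adjusted p = 0.0568). Mb, myoglobin, the oxygen store of oxidative fibres, measured 10.14 and 10.31 against 11.04 and 10.42, a difference of 0.51 that did not pass (adjusted p = 0.111). Its K5-IKKbeta pool 2 was barely above the wild type pools. A dimmer probe set of Mb went the other way, from 6.98 and 6.75 to 6.16 and 6.41 (-0.58, adjusted p = 0.0372 over all probe sets), and the mean of both gave -0.036, so no direction is given for Mb.

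**Figure D2:**
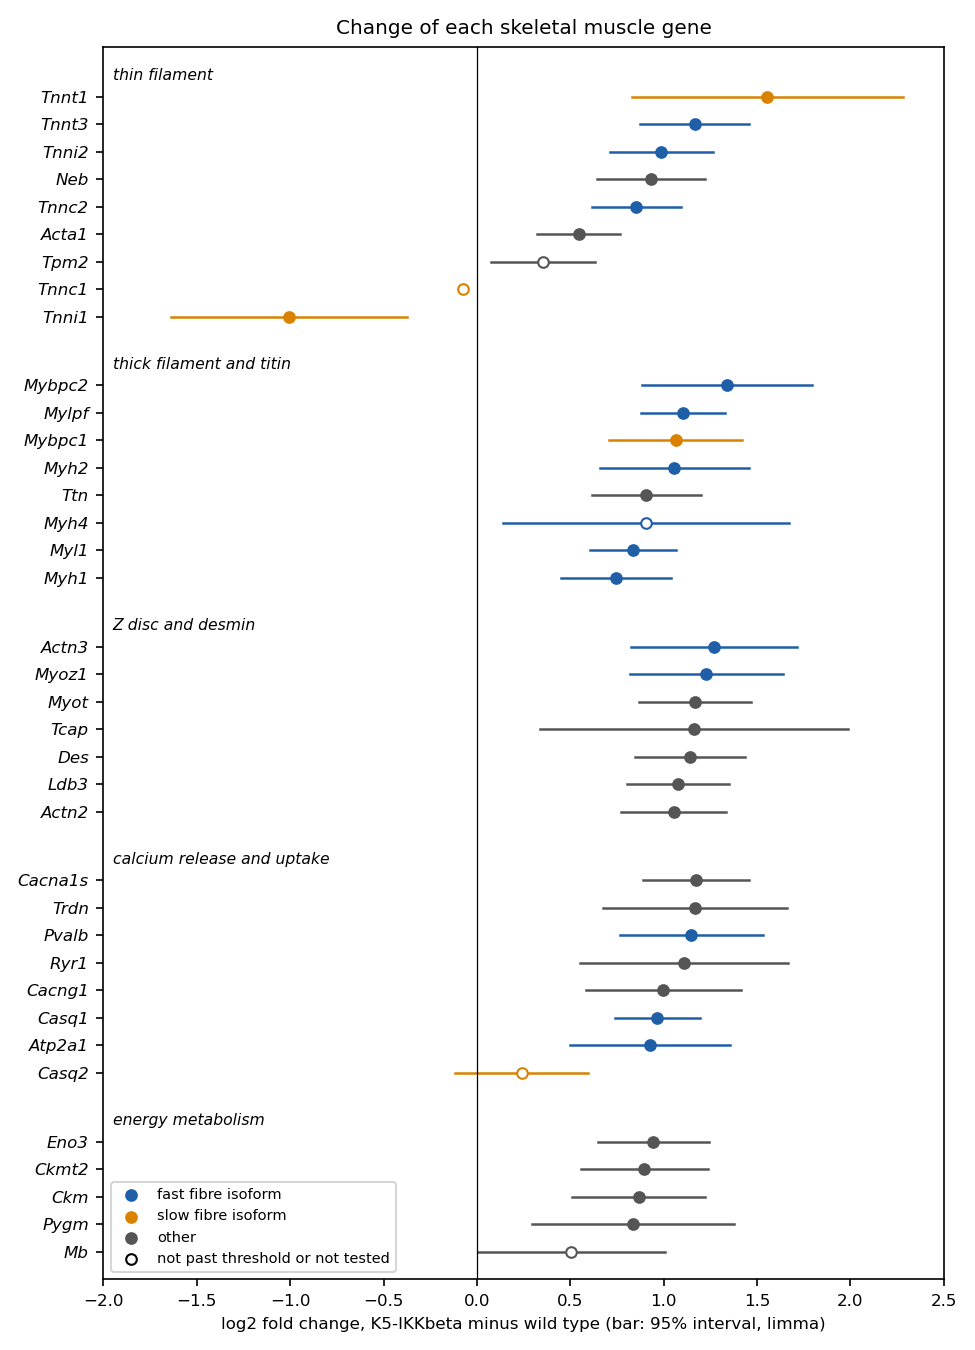
Log2 fold change of each skeletal muscle gene, K5-IKKbeta minus wild type (horizontal axis), with the 95% interval of the limma fit as a bar; blue marks are isoforms of fast fibres, orange marks isoforms of slow fibres, grey marks other genes, and open marks did not pass the threshold or were not tested. The 14 fast isoforms lie between 0.75 and 1.34, and the 5 slow ones between -1.01 and 1.56.

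Where genes had further probe sets, most went the same way. The 37 genes had 64 probe sets in all, and 13 genes had more than 1. Of the 27 probe sets not used above, 17 were higher, 1 was lower (that of Mb) and 9 did not pass, against 10.4% higher over all probe sets. Among these 27, 4 lay below the floor on every array, 1 for Tnni2 and 3 for Trdn. One of those 3 for Trdn was higher all the same (0.90), from 4.23 and 4.27 to 5.22 and 5.09. For Ttn, 4 of the 5 further probe sets were higher, by 0.56 to 1.11.

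Fast and slow isoforms of the same protein were set against each other within each array. The 14 fast isoforms included 13 that rose and had a median log2 fold change of 1.02, and all 14 had both K5-IKKbeta arrays above both wild type arrays. Of the 5 slow isoforms, 4 were tested, 2 rose (Tnnt1 and Mybpc1) and Tnni1 fell, with a median of 0.24 over the 5. Among all tested genes 23.4% were higher and 10.6% lower, and 45.2% had both K5-IKKbeta arrays above both wild type arrays. The log2 ratio of fast to slow isoform was then compared between genotypes for 9 pairs. In the pair of Actn3 and Actn2 the partner is the alpha-actinin of all fibres, so this ratio does not set fast against slow. With 2 arrays against 2, the exact two-sided permutation test cannot give a p under 0.33, so no pair can pass a threshold and the values are a description.

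The fast-to-slow ratio was higher in both K5-IKKbeta pools than in both wild type pools for 6 of the 9 pairs. For Tnni2 over Tnni1 the log2 ratio was 4.24 and 3.57 in wild type and 6.27 and 5.53 in K5-IKKbeta skin, a change of 1.996 (exact permutation p = 0.33, and 0.50 adjusted over the 9 pairs). For Tnnc2 over Tnnc1 the log2 ratio was 6.75 and 6.76 against 7.93 and 7.43, a change of 0.93. For Casq1 over Casq2 it was 3.04 and 2.77 against 3.78 and 3.47, a change of 0.73. In these pairs the fast isoform rose, while the slow one fell (Tnni1), was not tested (Tnnc1) or did not pass (Casq2). The ratio of Atp2a1 to Atp2a2 changed by 1.01, but Atp2a2, the pump of slow fibres, is also made by keratinocytes and many other cells, and measured 12.31 and 12.32 against 12.26 and 12.21. That of Mybpc2 to Mybpc1 changed by 0.27 with both genes higher. The ratio of Myh4 to Myh7, the slow heavy chain, changed by 1.12, with Myh7 below the floor in both groups, so the slow side of this ratio was not measured.

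The pairs Tnnt3 and Tnnt1, Actn3 and Actn2, and Myoz1 and Myoz2 had overlapping ratios. For Tnnt3 over Tnnt1 the log2 ratio was 4.91 and 4.99 in wild type and 5.18 and 3.94 in K5-IKKbeta skin, so that the K5-IKKbeta pools stood on both sides of the wild type pools. For Myoz1 over Myoz2, the calcineurin-binding Z disc proteins of fast and slow fibres, it was 1.72 and 1.70 against 1.86 and 1.002. The direction of change for these pairs turned without K5-IKKbeta pool 2 (to 0.23 and 0.15). The slow isoforms therefore had no common direction: Tnnt1 and Myoz2 rose, Mybpc1 rose with its fast partner, Casq2, Tnnc1 and Myl3 had differences of 0.24, -0.07 and -0.08 without a call, and Tnni1 fell. Myh7 and Myl2, the regulatory light chain of slow and cardiac muscle, lay below the floor on all arrays and give no direction.

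**Figure D3:**
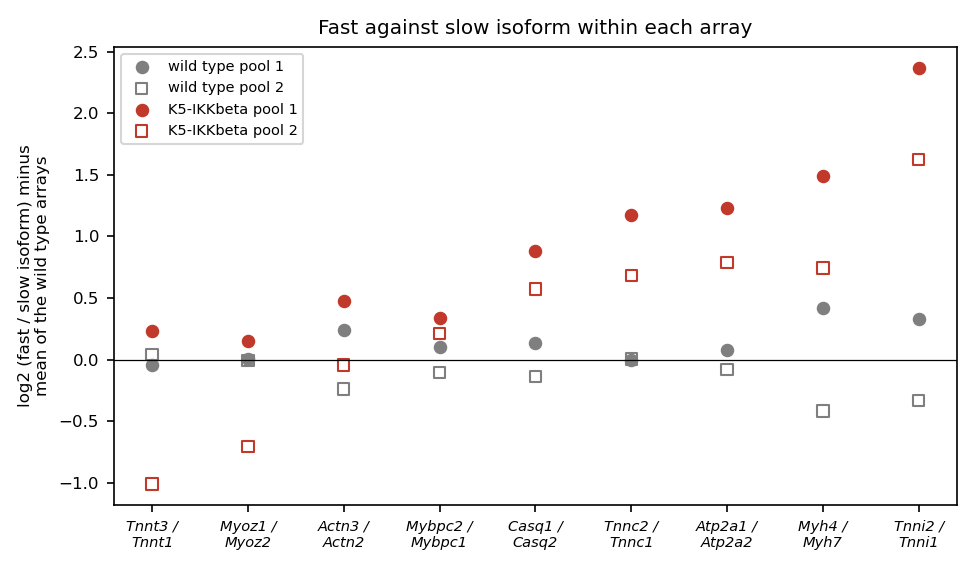
Log2 ratio of fast to slow isoform on each array for 9 isoform pairs, as the difference from the mean of the wild type arrays (vertical axis); marks as in the plot of genes by array. K5-IKKbeta pools lie above both wild type pools for 6 pairs, and K5-IKKbeta pool 2 lies lowest of the 4 for Tnnt3 over Tnnt1 (3.94) and for Myoz1 over Myoz2 (1.002). Actn2, the partner of Actn3, is the alpha-actinin of all fibres rather than a slow isoform.

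The pools of a genotype were then compared with each other, without a test since each value is 1 array against 1. Wild type pools were alike in the size of their differences in muscle genes: the median absolute difference over the 37 genes was 0.10, against 0.11 over all tested genes. Pool 1 of wild type skin lay above pool 2 for 24 of the 37 (median difference 0.03), against 37.1% of all tested genes (median difference -0.05). K5-IKKbeta pools differed more, by a median of 0.32 in absolute terms, against 0.13 over all tested genes. Pool 1 of K5-IKKbeta skin lay above pool 2 for 27 of the 37 genes (median difference 0.25), against 48.7% of all tested genes (median difference -0.01). Measured from the wild type mean, the median muscle gene was 1.11 higher in K5-IKKbeta pool 1 and 0.87 higher in pool 2, so both pools showed the rise. In the lists of other cells, K5-IKKbeta pool 1 was above pool 2 for 6 of 7 epidermal markers (median 0.25), 0 of 7 fibroblast markers (-0.16), 1 of 8 macrophage markers (-0.09) and 1 of 10 hair shaft genes (-0.32). Their part in the muscle difference between pools was not tested.

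Individual muscle genes separated the pools in different ways. Tcap had the largest gap between K5-IKKbeta pools, 1.10, followed among genes higher in pool 1 by Ryr1 at 0.72, Pygm at 0.69 and Myh4 at 0.68. The reverse held for Tnnt1 (-0.98), Tnni1 (-0.51), Tnnc1 (-0.39), Myh2 (-0.34) and Casq2 (-0.34), so that 4 of the 5 slow isoforms and the heavy chain of the slowest fast fibre type were higher in pool 2. In wild type skin, Myh4 was again higher in pool 1 (0.79), while Myh2 (-0.32), Myh1 (-0.24) and Tnni1 (-0.66) were again higher in pool 2. Tnnt1 (0.07) and Tnnc1 (0.10) went the other way in wild type skin, where 3 of the 5 slow isoforms were higher in pool 1. Over the 37 genes the pool difference in wild type and that in K5-IKKbeta skin had a Pearson correlation of 0.52 and a Spearman correlation of 0.47, and Pearson's was 0.42 over the 35 genes without Myh4 and Tnni1. These points share 4 arrays and are not independent, and nothing in the labels ties the pools of the same number to each other.

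**Figure D4:**
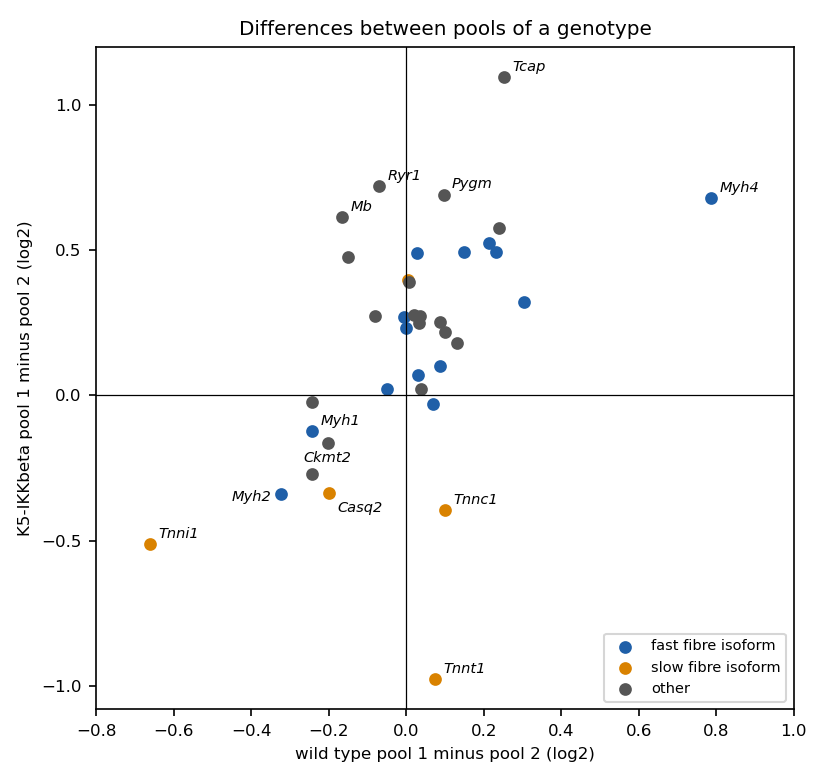
Difference between pool 1 and pool 2 in wild type skin (horizontal axis, log2) and in K5-IKKbeta skin (vertical axis, log2) for each of the 37 muscle genes; blue marks are fast isoforms, orange marks slow isoforms and grey marks other genes. Myh4 lies at the right and above 0 (0.79 and 0.68), Tnni1 and Myh2 lie below 0 on both axes, and Tcap is the highest at 1.10.

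Other genes of striated muscle, from lists that do not overlap the 37, mostly moved the same way. These lists were chosen with earlier results of these data known. Of all tested genes, 23.4% were higher and 10.6% lower, with a median of 0.09. Of 27 tested genes of muscle structure, 21 rose and none fell (median log2 fold change 0.79). Pdlim3, a Z disc protein that binds alpha-actinin, rose 2.59-fold, Klhl41, which stabilises nebulin, 2.56-fold, Cav3, the caveolin of muscle membranes, 2.47-fold, and Smpx, a small protein of the costamere, 2.35-fold (adjusted p = 0.000418 to 0.00611). Of 13 tested further genes of calcium handling, 10 rose and none fell (median 0.75 over the 14 with a probe set). Sln, sarcolipin, a small inhibitor of the calcium pump, measured 6.44 and 6.57 in wild type and 8.61 and 8.15 in K5-IKKbeta skin, a 3.66-fold rise (adjusted p = 0.000614). Cacna2d1, a subunit of the voltage sensor complex, rose 2.58-fold, Srl (sarcalumenin) 2.37-fold and Sypl2 (mitsugumin 29) 2.13-fold. Of 16 tested further energy genes, 13 rose and none fell (median 0.82 over the 18 with a probe set), among them the AMP deaminase Ampd1 (2.52-fold), the cytochrome oxidase subunits Cox6a2 (1.98-fold) and Cox8b (1.97-fold), and the fatty acid binding protein Fabp3 (1.98-fold). Of 4 tested further slow fibre genes, Myoz2 rose, 2.84-fold (adjusted p = 0.000746), and the others did not pass. That share of 25% is near the 23.4% of all tested genes.

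Genes of developing and regenerating muscle were partly higher. Of the 6 that passed the filter, Myh8 and Myog did so only through the K5-IKKbeta arrays, their wild type means of 6.10 and 5.74 being below it, so a call for them was favoured by the filter. Of the other 4, Actc1, Ncam1 and Myod1 rose and Myl4 did not pass, against 23.4% higher among all tested genes. Myh8, the perinatal myosin heavy chain, measured 6.03 and 6.17 in wild type and 8.13 and 8.10 in K5-IKKbeta skin, a 4.05-fold rise (2.02 ± 0.10, SE; adjusted p = 8.4e-05). Myog, myogenin, which drives myoblasts to differentiate, measured 5.62 and 5.86 against 6.84 and 7.41, a 2.62-fold rise (adjusted p = 0.00355). Actc1, cardiac alpha-actin, which young skeletal muscle also makes, rose 2.14-fold, Ncam1, an adhesion molecule of nerve and young muscle, 1.79-fold, and Myod1, the founding member of the MyoD family, 1.45-fold (adjusted p = 0.0243, 0.00318 and 0.0299). Myh3, the embryonic heavy chain, lay below the floor in both wild type pools and measured 5.43 and 6.09 in K5-IKKbeta skin without a test. Against the median shift of the 37 muscle genes on the same arrays, Myh8 was higher by a further 1.04 and Sln by 0.89, with both K5-IKKbeta pools above both wild type pools; the exact permutation p was 0.33 for each, the smallest that 2 arrays against 2 can give. Sln is from the calcium list. Only genes picked by hand were set against that shift, and others with large rises, such as Pdlim3 and Cacna2d1, were not. Among the picked genes of other lists, Myoz2 (0.53) and Cav3 (0.33) were also separated upwards. Tnni1 (-1.99), Tnnc1 (-1.05) and Casq2 (-0.74) were separated downwards. The exact permutation p was 0.33 for each of these as well. Of the other genes of the developing muscle list set against that shift, Myog was higher by a further 0.41 (exact permutation p = 0.67), Actc1 differed from it by 0.12 (exact permutation p = 1) and Myh3 by -0.31 (exact permutation p = 1), all with overlapping groups.

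Transcription factors and junction genes of muscle showed smaller differences, and their counts are to be read against the 23.4% higher and 10.6% lower of all tested genes. In the list of satellite cell genes and muscle transcription factors, 3 of 7 tested genes rose and 1 fell. The risers were Mef2c (2.21-fold), Mef2a (1.77-fold) and Myf6 (1.60-fold), with adjusted p of 0.0016 to 0.0104; the first pair encode factors of the MEF2 site and the last is a member of the MyoD family, whose E-box is shown above. Eya1, a transcriptional cofactor, fell by 0.64 (adjusted p = 0.0414). Pax7 and Myf5, which mark satellite cells, measured at most 5.40 and 3.53, at or below the floor apart from 1 array for Pax7, and were not tested. At the neuromuscular junction 3 of 8 tested genes rose, the acetylcholine receptor subunits Chrna1 (1.74-fold) and Chrnb1 (1.54-fold) and the agrin receptor Lrp4 (1.44-fold), with adjusted p of 0.00174 to 0.0271. The other 5, named after their values were seen, were Chrnd, Chrne, Musk, Rapsn and Dok7, with differences of -0.01 to 0.25. In the list of muscle wasting genes, 1 of 6 tested rose and 1 fell, 16.7% each way, which is no larger a share upwards than that of all genes. Trim63, a ubiquitin ligase of the sarcomere, rose 1.64-fold (adjusted p = 0.00277) and Foxo3, a transcription factor that activates it, fell by 0.60 (adjusted p = 0.00542), while the other 4 tested genes did not pass.

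**Figure D5:**
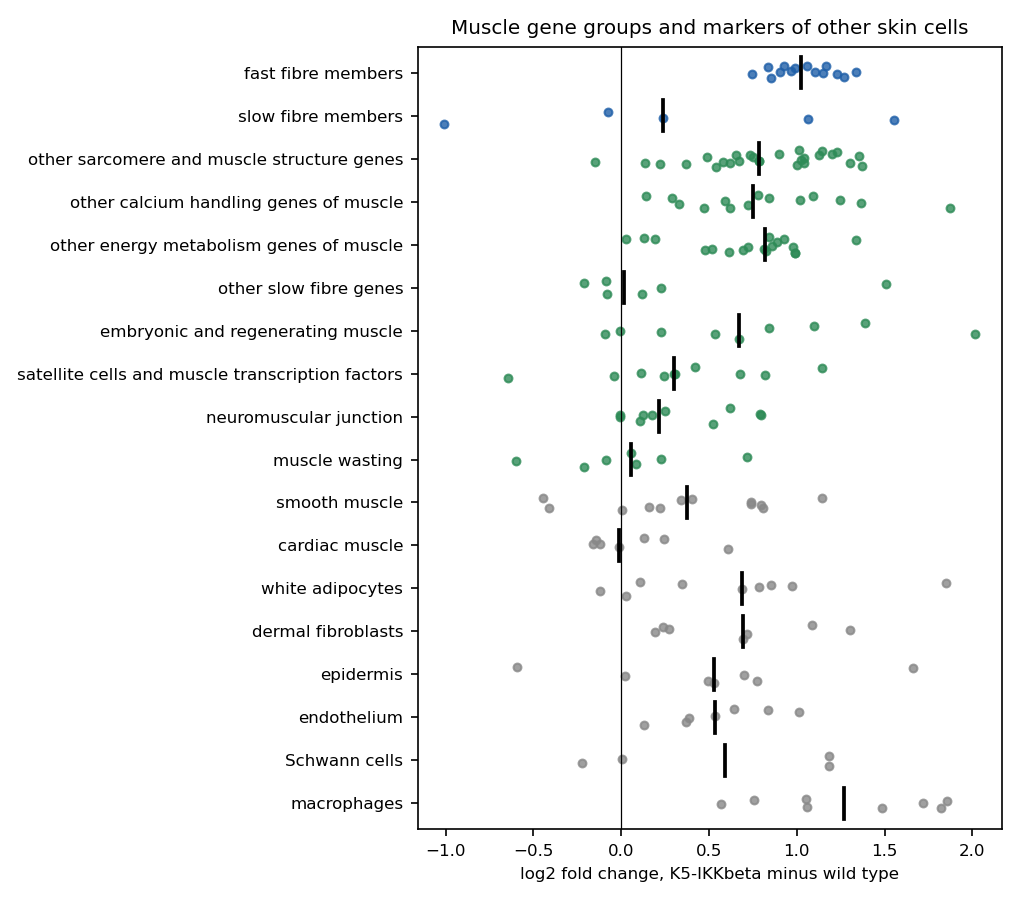
Log2 fold change, K5-IKKbeta minus wild type (horizontal axis), of each gene with a probe set in lists of muscle genes (blue for isoforms among the 37, green for other muscle genes) and in marker lists of other skin cells (grey), with the list's median as a black bar. Medians lie at 1.02 for fast isoforms, 0.79 for other muscle structure genes, 0.37 for smooth muscle and -0.01 for cardiac muscle; hair shaft genes, with a median of -5.91, are not drawn.

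Markers of other cells moved between the genotypes too. Their counts are to be read against the 23.4% higher and 10.6% lower of all tested genes, whose median difference was 0.09. Smooth muscle markers had no common direction: of 12 tested, 5 rose, 2 fell (Tagln and Smtn) and 5 did not pass, with a median of 0.37. Among the risers, Myocd passed the filter only through the K5-IKKbeta arrays, as did the macrophage marker Aif1 counted further on. Acta2, the smooth muscle actin, measured 12.19 and 12.20 in wild type and 12.17 and 12.24 in K5-IKKbeta skin, and Synpo2 and Myh11 rose 2.21-fold and 1.75-fold. Tpm1, the brightest gene of this list, measured 12.84 and 12.84 in wild type and 13.43 and 13.06 in K5-IKKbeta skin, without a call. The part of skeletal muscle RNA in the values of this list was not tested. The summed linear level of the smooth muscle list went from 17143 and 17220 in wild type to 21820 and 19411 in K5-IKKbeta skin, while that of the 37 skeletal muscle genes went from 98127 and 95417 to 190625 and 166031. Hair shaft genes fell in 10 of 10 cases (median -5.91), with summed levels of 98370 to 99703 in wild type and 3169 to 4614 in K5-IKKbeta skin. Of markers of other skin layers, 6 of 9 tested rose for white adipocytes (median 0.69), 4 of 7 for dermal fibroblasts (0.70), 5 of 7 for epidermis (0.53, with 1 lower), 5 of 7 for endothelium (0.53), 2 of 4 for Schwann cells (0.59) and 8 of 8 for macrophages (1.27). Summed levels ranged from 29711 to 31854 in wild type and 37587 to 40575 in K5-IKKbeta skin for adipocytes, and from 69822 to 75822 and 87996 to 98667 for fibroblasts. They ranged from 47874 to 48455 and 69086 to 83178 for epidermis, 1335 to 1361 and 1953 to 1975 for endothelium, 2744 to 2851 and 5493 to 6025 for Schwann cells, and 4339 to 4689 and 11069 to 11443 for macrophages. The Schwann cell markers were split. Pmp22 and Mbp rose 2.27-fold each, while Sox10 and S100b had differences of 0.003 and -0.22 and did not pass.

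When the arrays were quantile normalized again without the hair genes, an alternative chosen after seeing the data, 29 muscle genes rose and 1 fell, with a median of 0.87 against 0.01 for all tested genes. In that setting 2501 of all tested genes were higher and 1818 lower, in place of 3056 and 1380. The part of the other cell types in it was not tested.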

How the data were processed

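Back skin of mice was profiled on 4 one-colour Affymetrix arrays, each a pool of 3 mice. Per the submitters' processing notes, the authors made the values with RMA, and no version or log base is named there; their range of 2.65 to 14.7 is that of log2 RMA values, and the deposited log2 values were used without further normalization. Neither a genome build nor a software version is given in the sources used here. Of 45101 probe sets, 34958 had 1 symbol, 932 several and 9211 none; names came from the platform annotation, checked by identifier against the RefSeq gene table (GRCm38.p6), with 0 symbols changed.

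Genes with a brightest probe set above the 40th percentile were compared between genotypes by limma's moderated test (version 3.58.1, R 4.3.3). Only 2 residual degrees of freedom were available, and p-values measure the spread between pools. At an unadjusted p under 0.05, 5775 genes passed. In data simulated for this comparison over 13074 genes, calls were made for 6 of 67 true changes of 1.5-fold. For true changes of 2-fold the number was 51 of 67, and for those of 4-fold 66 of 66. The simulated data gave 125 calls in all, against 4436 in the real data. With fewer changes the adjusted threshold is stricter, so these shares are not those of the real comparison. Members and lists were chosen with earlier results of these data known. All members were described; of each other list, up to 4 called genes with the largest change were named, or 2 with the smallest p where none was called, and genes outside this rule were chosen after their values were seen. Alternatives were the filter, the choice of probe set, the normalization, the variance model, a minimum fold of 1.2, the replicate number as a block and leaving out each array. The number of arrays limits the precision.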

Additional observations from a re-analysis of the deposited data

How the results depend on the processing

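The median rise of the muscle genes kept its direction under every alternative for which it was computed, between 0.87 and 1.11, and the count of called muscle genes stayed between 24 and 35 with each array left out in turn. A fit without moderation across genes has 2 residual degrees of freedom and called 0 of 36 muscle genes and 134 genes in all (80 higher and 54 lower), although 24 of the 36, and 4190 of all 13074 genes, had an unadjusted p under 0.05 and limma's moderated fit called 32. Against a minimum change of 1.2-fold, 28 muscle genes and 2348 genes in all were called; Acta1, Tnni1, Pygm and Tcap were lost. Over all genes, 2253 to 4640 were called with each array left out in turn. The isoform difference had a median of 0.73 over 9 pairs and 0.57 to 0.88 with each array left out. Direction reversed for Mb with the mean of all probe sets (-0.036). With each array left out in turn it also turned for Tnnc1 (-0.27 to 0.12, above 0 without K5-IKKbeta pool 1), for Actn3 over Actn2 (-0.043 to 0.47, below 0 without wild type pool 2 or K5-IKKbeta pool 1), and for Tnnt3 over Tnnt1 (-1.01 to 0.23) and Myoz1 over Myoz2 (-0.71 to 0.15), both above 0 without K5-IKKbeta pool 2; the cause was not tested. With probe sets ending in _s_at, _x_at or _a_at left out, 26 of 29 tested muscle genes were called, all higher. Of all 11348 genes tested in that setting, 3832 were called. Myh1 was lost (0.10, adjusted p = 0.59) and Tpm2 gained (1.10, adjusted p = 0.00148). Genes without another probe set, among them Tnni1 and Tnnt1, could not be tested there. The groups share replicate numbers, but nothing in the labels pairs them; the correlation of pool differences over all tested genes was 0.25, and the replicate block called 34 muscle genes (33 higher and 1 lower) and 4553 genes in all. The calls gained under the block were those of Myh4 (adjusted p = 0.00542) and Tpm2 (0.0407). No group had the 4 arrays needed to test for an outlying array. In the simulation, true changes of 1.5-fold were mostly missed (6 of 67 called). It held far fewer changes than the real data, with 125 calls against 4436. Fewer changes make the adjusted threshold stricter, so its shares do not carry over to the real comparison.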
